A study of Mus musculus with 3 samples.

Results

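Actin regulators that sever, cap, elongate or bundle filaments were followed in mouse myeloid leukaemia cells that differ in their sensitivity to cytarabine (Ara-C, a deoxycytidine analogue that blocks DNA synthesis). The set was Scin, Gsn, Capg, Cfl1, Evl, Vasp, Enah, Coro1a, Lcp1 and Flii, taken as every array probe whose gene symbol, current or older, names one of these genes. It came to 12 of the 26423 probes and 9 of the 17742 named genes. Cfl1, the gene of cofilin, was not among the named probes and is not analysed here. The set was selected on these same values, because Scin and Evl read lower in resistant cells on 2 probes each. For its members the difference between resistant and sensitive arrays is therefore given as a description with no test.

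All cells were of the BXH-2 mouse strain, with bone marrow as the labelled tissue. Sensitive cells were the parental line B117P, measured on 2 arrays. Resistant cells were B117HS, a single line obtained from B117P by stepwise exposure to rising Ara-C for about 10 weeks and measured on 1 array. Its IC50 for the drug was about 10 times higher than the parent's, per the labels. Separate cultures are not stated for the sensitive arrays, so the errors and p-values below rest only on their spread, which may be technical. The SE of each probe comes from limma's fit, which draws most of it from the spread over all probes rather than from that probe's own 2 arrays.

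Actin filaments grow at one end and shrink at the other, and leukocytes use this turnover to crawl, engulf particles and shape their cortex. Proteins of the gelsolin family cut or cap filaments when calcium rises. Proteins of the Ena/VASP family sit at growing ends and speed elongation. Coronin and L-plastin, encoded by Coro1a and Lcp1, are blood-cell proteins that regulate branched networks and bundle filaments.

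The resistant array was dimmer as a whole. Median intensity was 58.4 and 72.5 units on the sensitive arrays against 24.9 on the resistant array, and over 6184 probes with a mean of at least 500 units the resistant array lay at a median log2 ratio of -0.76 to the sensitive mean. Differences are given on the log2(intensity + 50) scale as deposited, and again after a scaling that set this shift to 0. A call below means a limma adjusted p (Benjamini-Hochberg, over all probes) under 0.05 together with the size rule, which asks the resistant array to lie at least 1 log2 unit below both sensitive arrays, or at least 1 above both. By this rule 4104 probes were called lower and 1153 higher as deposited, and 1818 lower (6.88%) and 2166 higher (8.2%) after scaling. As deposited, the adjusted p removed no probe that passed the size rule, so calls there rest on size alone. Of the 7 measured myeloid markers, 7 read at least 50 units on every array, with sums of 90131, 98600 and 91657 units, of which Mpo, the myeloperoxidase gene, gave 76710, 84138 and 80905. Of these markers, Spi1 was called lower on both scales, Itgam (-1.89) and Csf3r (-1.78) were called lower only as deposited, and Cebpa was called higher after scaling only (0.98 as deposited). Most markers of other cell types were dim. The 5 megakaryocyte and platelet markers summed to 152, 113 and 56.0 units on sensitive replicate 1, sensitive replicate 2 and the resistant array, with 0 of 5 at 50 units or more on every array. The sums were 324, 293 and 29.6 units for 6 stromal markers, with Col1a2 and Lum at 10 units or below throughout, 318, 281 and 118 for 4 T-cell markers, 74.5, 76.5 and 52.9 for 2 erythroid markers, and 160, 166 and 170 for 4 epithelial markers. Cd3e (272, 223 and 90.2 units) and Krt18 (112, 102 and 145) read 50 or more on every array, and Pdgfrb (261, 203 and 23.3), which made up most of the stromal sum, was called lower on both scales. The part of these markers and of the overall dimness in the values below was not tested.

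Scin and Evl read strongly on both sensitive arrays and below the median on the resistant array. Enah read near 0 on the sensitive arrays and above the median on the resistant array. Capg, Flii and Coro1a were lower on the resistant array but still above its median, and Gsn, Vasp and Lcp1 lay within 1 log2 unit of both sensitive arrays as deposited. In such bulk RNA, fewer cells that express a gene and less of its RNA per cell cannot be told apart. At least 1 log2 unit below each sensitive array were 7 probes of 5 genes, and at least that far above were 2 probes of 1 gene. The same size was reached by 15.5% of all probes in the lower direction and by 4.36% in the higher direction, and by 38.5% in the lower direction among probes with a sensitive mean of at least 500 units (15.7% after scaling). After scaling, the same 7 and 2 member probes passed, against 7.31% and 8.55% of all probes. Since this contrast helped to choose the genes, nothing is read from these shares.

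**Figure D1:**
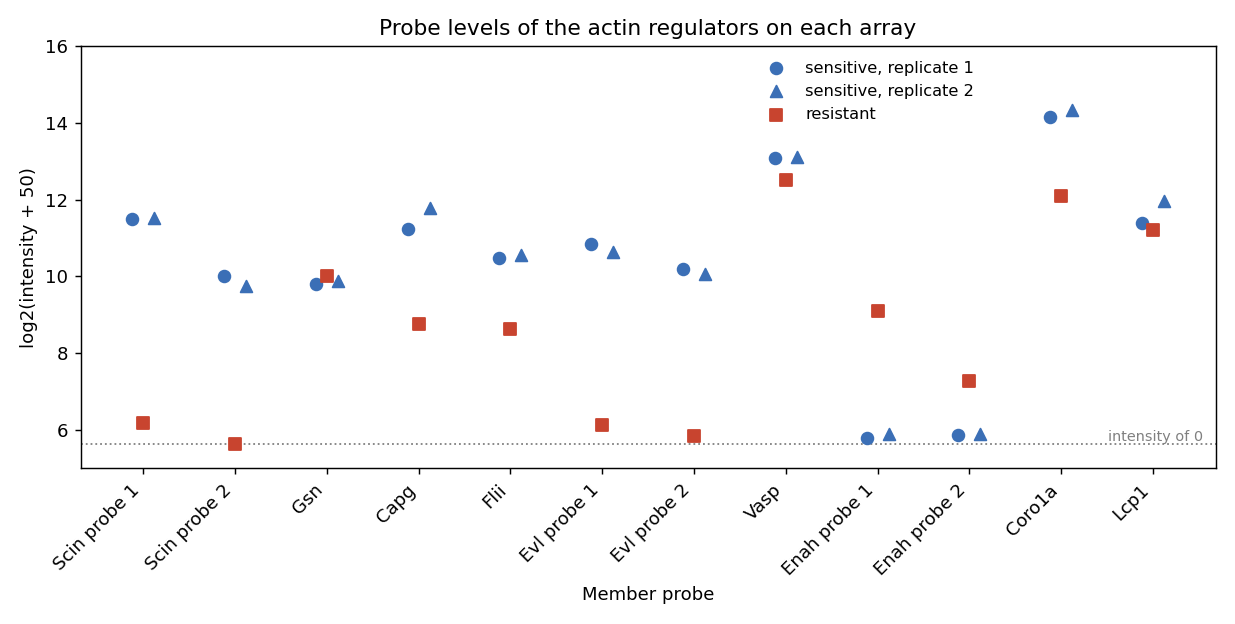
Level of each probe as log2(intensity + 50) on the 2 sensitive arrays (blue circle and triangle) and the resistant array (red square), with a dotted line at an intensity of 0. The resistant squares of Scin and Evl lie near that line, as do the sensitive points of Enah, while the 3 points of Gsn, Vasp and Lcp1 lie close together.

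Within the gelsolin family, Scin had the largest negative difference, Capg and Flii were lower by less, and Gsn was slightly higher on the resistant array. Scin encodes scinderin, also called adseverin, a calcium-dependent severing and capping protein. Its brighter probe read 2845 and 2875 units on the sensitive arrays against 21.8 on the resistant array, a log2 difference of -5.34 (SE 0.23). Its dimmer probe read 975 and 803 units on the sensitive arrays and was listed at 0 for the resistant one, a log2 difference of -4.23 (SE 0.27). On both probes the sensitive arrays were far above the resistant array, whose brighter value of 21.8 was itself below that array's median. After scaling, the differences were -5.06 and -4.23. Over the processing settings tried they ranged from -6.25 to -4.60 and from -5.82 to -3.30.

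Capg encodes a protein that caps filament ends without cutting them. It read 2330 and 3477 units on the sensitive arrays against 387 on the resistant array, a log2 difference of -2.73 (SE 0.26) as deposited and -2.03 after scaling. The sensitive arrays differed by 0.57 between themselves, less than the gap to the resistant array. Flii encodes flightless, a gelsolin-related protein that also binds nuclear receptors. It read 1390 and 1452 units against 348, a log2 difference of -1.88 (SE 0.23), or -1.20 after scaling. Capg and Flii read below both sensitive arrays, as did 67.1% of all probes.

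Gsn encodes gelsolin itself. Its probe read 842 and 897 units on the sensitive arrays against 980 on the resistant array, a log2 difference of 0.16 (SE 0.23). The resistant value lay just above both sensitive values, and after scaling the difference was 0.90, short of the size asked. In the same comparison the other measured members of the gelsolin and villin family, Vil1, Vill, Avil and Svil, gave 1 higher call and 0 lower calls by limma, with a median log2 difference of -0.18. At an unadjusted p under 0.05 in the same limma fit, 0 of these were lower. Their sensitive means were only 3.88 (Vil1), 26.9 (Vill), 35.8 (Avil) and 24.6 units (Svil). From such levels, with the offset added, a fall to 0 units stays short of the size rule. Whether these genes were lower in resistant cells therefore cannot be read from the 0 lower calls. Svil, the gene of the membrane-linked supervillin, rose from 24.6 ± 15.5 (SD, n = 2) to 194 units, a log2 difference of 1.73 (limma adjusted p = 2.17e-04).

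The Ena/VASP family split 3 ways. Evl encodes the family member typical of blood cells. Its brighter probe read 1768 and 1531 units on the sensitive arrays against 20.2 on the resistant array, a log2 difference of -4.59 (SE 0.25). The dimmer Evl probe read 1118 and 1014 units against 7.78, a log2 difference of -4.27 (SE 0.25). As for Scin, both probes were high on the sensitive arrays and near 0 on the resistant array, and scaling changed the differences little, to -4.33 and -4.14.

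Vasp, the founding member of the family, read 8560 and 8844 units on the sensitive arrays against 5770 on the resistant array, a log2 difference of -0.59 (SE 0.20). The resistant value was below both others as deposited, and the difference turned to 0.17 after scaling, so that its direction depended on the scale. Enah encodes Mena, a member best known from epithelial, neural and invasive tumour cells. Its brighter probe read 4.97 and 9.23 units on the sensitive arrays against 493 on the resistant array, a log2 difference of 3.25 (SE 0.27). The other Enah probe read 8.70 and 9.23 units against 106, a log2 difference of 1.40 (SE 0.21). Both Enah probes were thus near 0 on the sensitive arrays, while on the resistant array they lay above its median of 24.9. The differences were 3.96 and 1.96 after scaling, and the dimmer probe missed the size rule, at 0.92, with an offset of 100. Of 5136 probes at 10 units or below on both sensitive arrays, 114 read at least 100 on the resistant array, and both Enah probes were among them.

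Coro1a was lower in the resistant cells, whereas Lcp1 lay closer to its level in the parent. Coro1a read 18078 and 20738 units on the sensitive arrays against 4352 on the resistant array, a log2 difference of -2.14 (SE 0.20), or -1.38 after scaling. Its sensitive mean was 4.46 times the resistant value, and the sensitive arrays differed by 0.20 on the log2 scale. Lcp1 read 2610 and 3973 units on the sensitive arrays against 2321 on the resistant array, a log2 difference of -0.46 (SE 0.25). This was smaller than the 0.60 between the sensitive arrays, and it turned to 0.29 after scaling. Over the 12 probes the sensitive arrays differed by a median of 0.12 log2 units and at most 0.60, against 0.18 and a 95th percentile of 0.63 over the 6352 probes with a sensitive mean of at least 500 units.

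**Figure D2:**
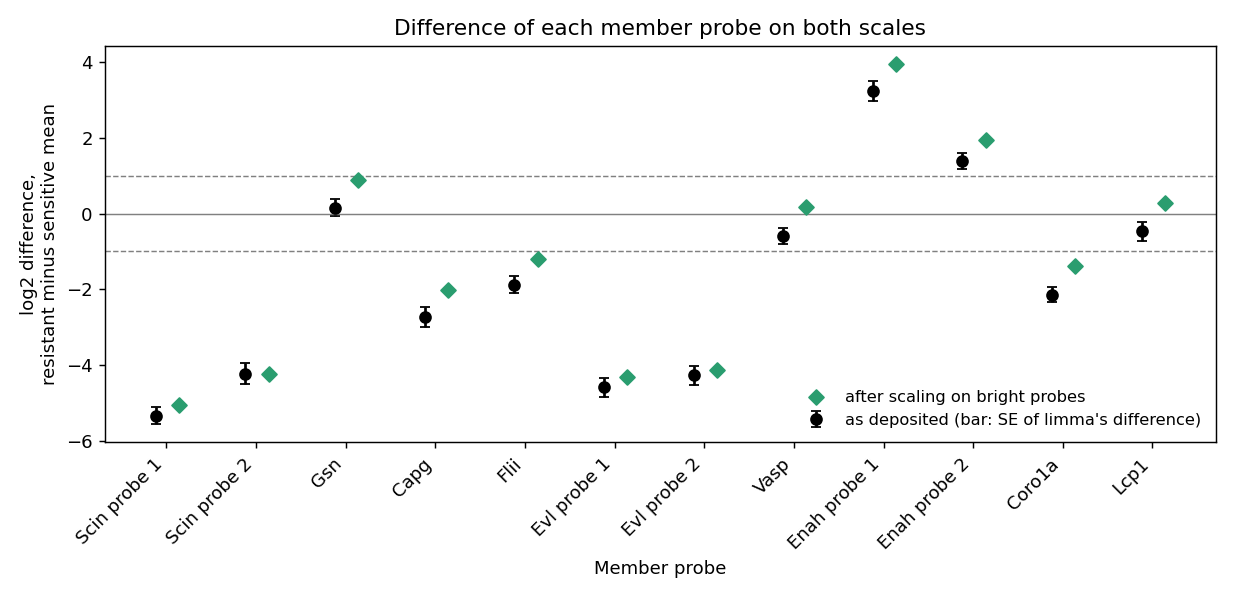
Log2 difference of each probe, resistant minus the sensitive mean, as deposited (black circles, bars for the SE of limma's difference) and after scaling on bright probes (green diamonds), with dashed lines at 1 and -1. Vasp and Lcp1 change sign between the scales, while Scin, Evl, Capg, Flii and Coro1a stay below -1 and Enah stays above 1 on both.

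Scin, Evl and Enah each had 2 probes, which differed in the same direction. Among 2278 genes with at least 2 probes, the brightest probe was lower by the size rule in 528, and the second brightest was lower too in 153 of these (29.0%). The second probe had a sensitive mean of at least 500 units in 296 genes, Scin and Evl among them. In 103 of these the brightest probe was lower, and in 64 of the 103 (62.1%) the second was lower too. Every probe was lower in 5.66% of the genes with at least 2 probes (2.37% after scaling) and higher in 1.84% (4.17%). Both probes were lower by at least 4 log2 units in 4 genes, Scin, Evl, the chemokine receptor gene Ccr2 and Ms4a6d. Scin and Evl were chosen for that agreement, and Ccr2 and Ms4a6d are named after their values were seen. The limit of 4 lies just under the differences of the dimmer Scin and Evl probes (-4.23 and -4.27). With an offset of 100 these were -3.30 and -3.43 and missed it, so nothing is read from the count of 4 genes. The dimmer probes of Scin and Evl were 2 of 47 probes, out of 6019 that reached 500 units on both sensitive arrays, that read 10 or below on the resistant array. Marks for failed spots were not used here, and a failed spot at these 2 probes was not tested.

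**Figure D3:**
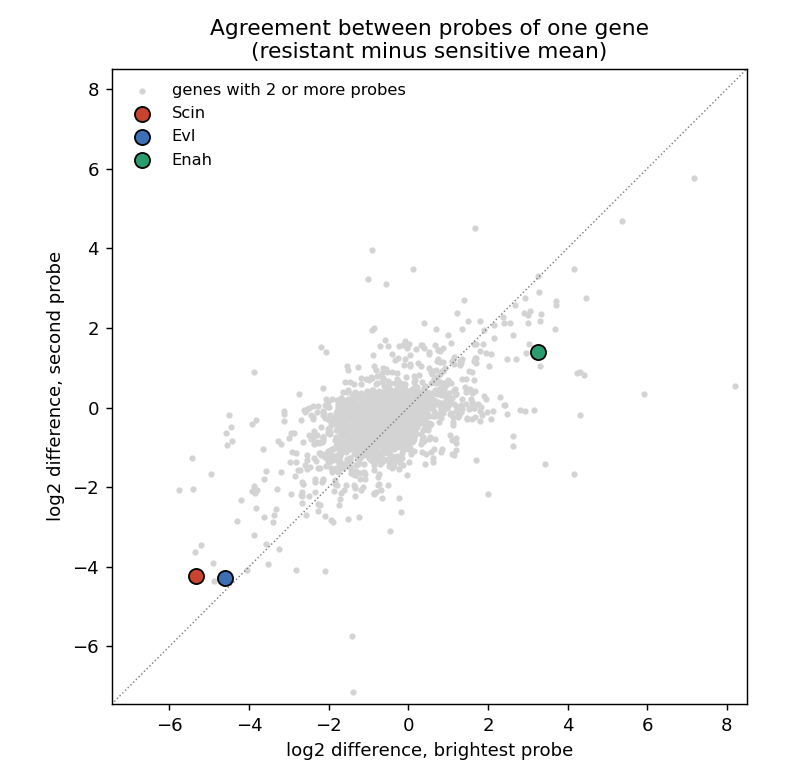
Log2 difference, resistant minus the sensitive mean, of the brightest probe (horizontal) and the second brightest probe (vertical) of each gene with at least 2 probes, with a dotted line where both are equal. Scin and Evl, which were chosen for their low values, lie below -4 on both axes, and Enah lies above 1 on both.

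The stretches before the start sites of Scin, Evl and Enah, the 3 members with 2 probes, are shown. The levels of these genes lay far apart on the 2 kinds of array. Each is the 250 bases before a RefSeq start on GRCm38.p6, read 5′ to 3′ on the gene's strand, with motif matches in capitals. The windows are chr12:40134229-40134478 on the minus strand for Scin, chr12:108554470-108554719 and chr12:108605516-108605765 on the plus strand for 2 starts of Evl, and chr1:182019981-182020230 on the minus strand for Enah.
Scin: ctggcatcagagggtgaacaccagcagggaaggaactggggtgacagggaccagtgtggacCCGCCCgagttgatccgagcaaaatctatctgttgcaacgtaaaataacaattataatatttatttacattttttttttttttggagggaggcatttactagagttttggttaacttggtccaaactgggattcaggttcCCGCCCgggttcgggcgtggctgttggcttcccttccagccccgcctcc
Evl, first start: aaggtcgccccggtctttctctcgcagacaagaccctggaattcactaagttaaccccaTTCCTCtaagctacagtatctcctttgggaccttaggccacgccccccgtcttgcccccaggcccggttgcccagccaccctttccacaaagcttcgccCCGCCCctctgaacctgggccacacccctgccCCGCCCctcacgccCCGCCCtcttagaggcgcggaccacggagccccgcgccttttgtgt
Evl, second start: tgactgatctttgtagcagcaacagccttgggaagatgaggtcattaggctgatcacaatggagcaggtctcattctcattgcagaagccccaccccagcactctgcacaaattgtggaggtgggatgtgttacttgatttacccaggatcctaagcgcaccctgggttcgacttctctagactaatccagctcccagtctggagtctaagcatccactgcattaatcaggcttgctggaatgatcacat
Enah: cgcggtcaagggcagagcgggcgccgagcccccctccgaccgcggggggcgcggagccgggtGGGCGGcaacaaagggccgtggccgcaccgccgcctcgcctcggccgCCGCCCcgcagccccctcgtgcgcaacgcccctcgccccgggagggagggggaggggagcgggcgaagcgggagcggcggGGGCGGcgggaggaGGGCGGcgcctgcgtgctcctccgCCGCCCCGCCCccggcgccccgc

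Capitals mark matches on either strand to GGGCGG (the GC box bound by Sp1-type factors) or GAGGAA (a core of PU.1 sites). Also searched were TGTGGT (a RUNX core) and the CArG box of SRF, which had no match in these 4 windows. The Scin window held 2 GC boxes, the first Evl window 3 and the Enah window 6, of which 1 pair overlapped. The second Evl window held 0, and its 2 CpG dinucleotides compare with 16 in the first Evl window, 9 in that of Scin and 42 in that of Enah, where the median of 32851 windows was 6. A GC box was present in 32.7% of all these windows, the PU.1 core in 23.3%, the RUNX core in 14% and the CArG box in 1.47%. The PU.1 core had 1 match in the first Evl window and 2 in a window of Gsn. These matches are descriptions of letters only.

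In the order of genes on GRCm38.p6, the 3 nearest measured genes on each side of Scin included 0 called by limma in either direction, with log2 differences from -0.74 to 0.43 and 2 of 6 at an unadjusted p under 0.05. The 6 such neighbours of Enah also held 0 limma calls, with 2 at an unadjusted p under 0.05, and those of Evl held 2 lower calls and 4 of 6 at an unadjusted p under 0.05, with log2 differences from -3.38 to 0.08. The 6 neighbours of each of the other members held 1 or 2 lower calls, and those of Capg and Vasp also held 3 and 1 higher calls. Over all genes, each taken at its brightest probe, 18.5% were called lower and 5.23% higher.

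The 3 genes with patterns closest to Scin over the 3 arrays were H1f1, Gimap6 and Bcl11a, at Euclidean distances of 0.047, 0.077 and 0.085 log2 units. For Evl they were Washc3, Pafah1b3 and Rasa4, at 0.047, 0.091 and 0.16. H1f1, Gimap6 and Washc3 read 9.33, 1.56 and 0 units on the resistant array, so these matches include bright probes that read near 0 there. Bcl11a differed by -5.40 on the probe matched and by -2.04 on its second brightest. With 3 arrays centred on the sensitive mean, a distance mostly ranks genes by the size of the difference that chose Scin and Evl. Nothing further is read from it.

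Other genes of actin turnover included formins, Ena/VASP partners and the tropomyosin gene Tpm4 with large differences, and many calls held on 1 scale only. Of 104 measured genes in 12 lists, 24 (23.1%) were called lower and 5 (4.81%) higher as deposited, where calls rest on size. Over all genes these shares were 18.5% and 5.23%. The median log2 difference of the 104 genes was -0.53, against -0.33 over all genes. Over probes with a sensitive mean of at least 500 units it was -0.83. Called on both scales were 12 lower and 5 higher. With quantile normalization 9 were called lower, and when values under 50 were set to 50 and no offset was added, 0 were called lower by limma, although 26 were lower by the size rule there, 23 of them at an unadjusted p under 0.05. Over all genes 8.14% were called lower and 5.17% higher on both scales, and 8.25% and 9.6% were called so after scaling. Below, "fell" and "rose" mean a call on both scales. The adjusted p-values are from limma over all probes, with 1 residual degree of freedom and the lone resistant array assumed to vary like the sensitive ones. Of the 5 that rose, Svil, Limk2, Pls3 and Espn began at sensitive means below 25 units.

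Among monomer-binding proteins, formins and partners of Ena/VASP, 6 of 14 genes fell and 1 rose, and the list median was -1.23. Fmnl1, a formin gene of blood cells, fell from 2113 ± 679 (SD, n = 2) to 196 units, a log2 difference of -3.10 (limma adjusted p = 8.43e-07). Fmnl2, its relative, rose from 80.8 and 116 to 2445 units, a log2 difference of 4.08 (adjusted p = 4.51e-08, limma). Fhod1, another formin gene, fell by 2.69 on the log2 scale. Tmsb10, which encodes a thymosin that holds actin monomers, fell from 14902 ± 1823 to 644 units on its brightest probe, but its other probes differed by -0.29 and -0.85 and were not called. The other 3 that fell, named after their values were seen, were Diaph3 (-2.69), Apbb1ip (-2.03) and Raph1 (-1.99, on a probe at -10.9 units on the resistant array). The last 2 encode adaptors that bring Ena/VASP proteins to the membrane. Pfn1, the profilin gene, read 2644 and 4983 units against 1475 and was not called, with a difference of -1.27 as deposited and -0.53 after scaling.

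In the cofilin system 2 of 18 genes fell and 1 rose, with a median of -0.89. Limk1, which encodes a kinase that inactivates cofilin, fell from 467 ± 15.5 to 112 units, or by a log2 difference of -1.67 (limma adjusted p = 1.45e-04). Limk2 rose by 1.12 on its brightest probe, from 18.0 ± 2.57 to 98.0 units, while its other probe differed by -0.24. Gmfg, which encodes a debranching protein of the cofilin fold, fell by 3.87 on a probe at 4.67 units on the resistant array, and its other probes differed by -0.56 and 0.88. Tesk1, the gene of another cofilin kinase, was called lower only as deposited (-1.60, and -0.94 after scaling). Dstn, the gene of the cofilin relative destrin, read 5029 and 4384 units against 6784 and was called higher after scaling only (0.53 as deposited, 1.29 scaled). Twf2, a twinfilin gene named after its values were seen, was not called on its brighter probe (-0.44) and was called lower as deposited on the other (-1.45).

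Genes of branching and capping held 0 limma calls on both scales, and at an unadjusted p under 0.05 as deposited 6 of 8 Arp2/3 genes, 7 of 14 WASP, WAVE and cortactin genes and 7 of 13 capping genes were lower. Over all genes the share at that p was 45.1% lower and 10.2% higher, and in these lists 0, 2 and 2 genes were higher. The medians of these lists were -0.70, -0.62 and -0.43. Lower by the size rule as deposited were 12.5%, 14.3% and 15.4% of their genes, below the 18.5% of all genes. In the Arp2/3 complex 1 of 8 genes, Arpc5, was called lower as deposited (-1.40, and -0.65 after scaling), and Arpc2 read 34417 and 37336 units against 18673 (-0.94, and -0.18 after scaling). Among WASP, WAVE and cortactin genes 2 of 14 were called lower as deposited, Was (-1.26) and Wasf1 (-1.41), which became -0.53 and -0.99 after scaling. Wasl, which encodes N-WASP, was called higher after scaling only (0.76 as deposited, 1.50 scaled). In the capping list 2 of 13 were called lower as deposited, Capzb (-1.22) and Eps8 (-1.44), and neither after scaling. The other Capzb probes differed by -1.01 and -0.52 and were not called. Tmod4, a tropomodulin gene, was called higher after scaling only (0.93 as deposited, 1.63 scaled), and it and Wasl are named after their values were seen. Hcls1, the blood-cell relative of cortactin, differed by -1.28 without a call, with 2963 and 6135 units on the sensitive arrays.

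Of the other coronins, 1 of 6 fell: Coro2a, from 662 ± 163 to 87.1 units, a log2 difference of -2.36 (limma adjusted p = 1.26e-05). Coro1c was called lower only as deposited (-1.42, and -0.73 after scaling), and Coro1b was not called (-1.23). The coronin median was -0.96. Among bundling and cross-linking genes 1 of 12 fell and 2 rose, with a median of -0.26. Pls3, which encodes T-plastin, the relative of Lcp1 found mainly outside blood cells, rose from 6.95 ± 4.23 to 243 units, a log2 difference of 2.36 (limma adjusted p = 4.43e-06). Espn, the gene of espin, rose from 8.31 ± 0.553 to 156 units, by 1.82 on the log2 scale, on its brightest probe and differed by 0.01 on the other. Marcksl1, which encodes a membrane-bound protein that binds filaments, fell from 1845 ± 123 to 56.0 units, or by a log2 difference of -4.16 (limma adjusted p = 1.24e-08). Flna, the filamin A gene, read 12141 and 12714 units against 8201 and was not called, and Lasp1 was called lower only as deposited (-1.43).

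Actb, the gene of beta-actin, read 29139 and 31198 units on the sensitive arrays against 14518 on the resistant array, a log2 difference of -1.05 called as deposited and -0.29 after scaling. It was the only call among 4 actin genes as deposited, whose median was -0.20. In the list of tropomyosins and myosins 5 of 14 genes were measured, with Myl12a the only myosin gene among them. Of these 5 genes 2 fell, with a median of -0.56. Tropomyosins coat filaments and shield them from severing. Tpm4 fell from 3023 ± 399 to 31.1 units, or by a log2 difference of -5.24 (limma adjusted p = 1.48e-09). Tpm1 fell by 2.09 on its brightest probe and differed by 0.07 and -0.43 on the others, and Tpm3 differed by -0.56 without a call. The 3 membrane linkers held 0 limma calls at their brightest probes, with 1 of 3 lower at an unadjusted p under 0.05. Rdx, the radixin gene, named after its values were seen, differed by -0.50 there and was called lower as deposited on its other probe (-1.95). Msn, the moesin gene, read 4468 and 6913 units against 4772. Srf, the transcription factor that drives many actin genes, was called higher after scaling only (0.74 as deposited, 1.50 scaled), and its other probe differed by 0.45 as deposited. Srf was 1 of 3 genes in the list of SRF and its cofactors, of which 0 were called by limma as deposited, with 1 higher at an unadjusted p under 0.05. The medians were -0.29 for the membrane linkers and 0.33 for SRF and its cofactors.

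**Figure D4:**
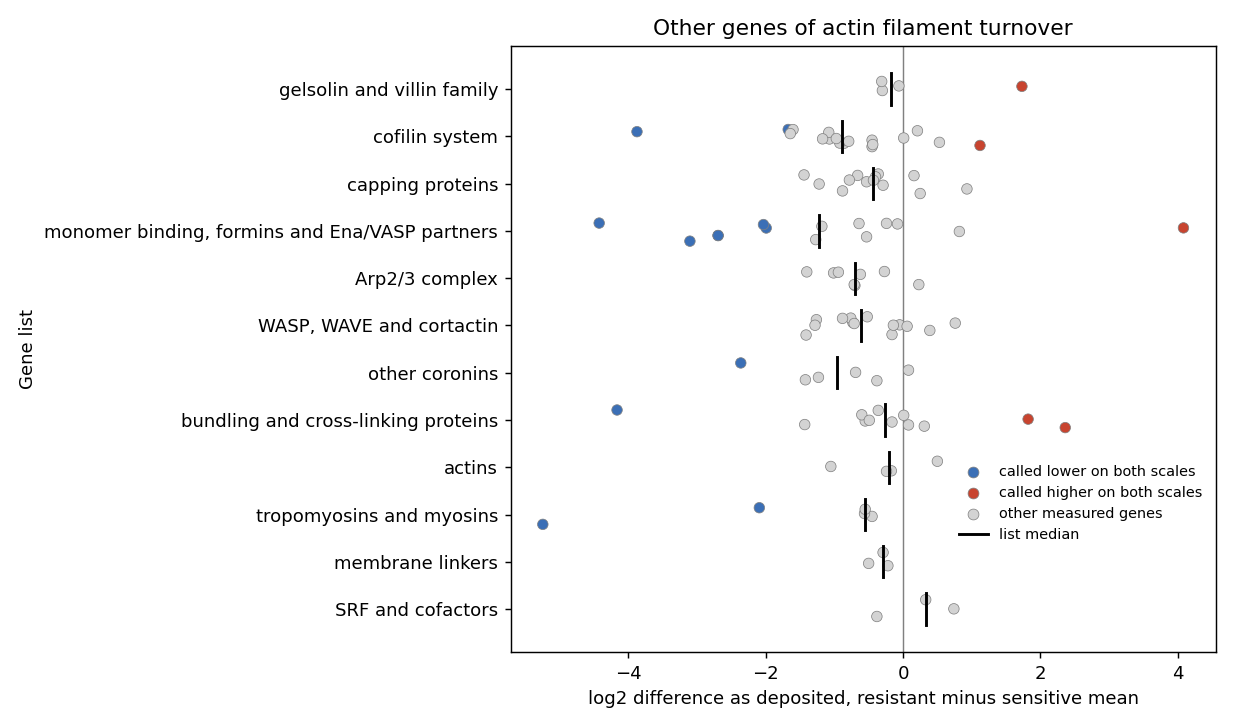
Log2 difference as deposited, resistant minus the sensitive mean, of 104 genes in 12 lists of actin turnover, each at its brightest probe (points, spread vertically within a list for visibility), with the list median as a black bar. Blue points were called lower and red points higher on both scales: 12 and 5, of which 6 and 1 were in the list of monomer-binding proteins, formins and Ena/VASP partners.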

How the data were processed

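Amplified antisense RNA carried the dye Cy5 and each array held 1 sample, per the labels' protocols. Groups came from the sample titles. The table the authors deposited gives each probe an intensity on each of 3 arrays. These intensities are linear and reach below 0, so a background had been subtracted, and at least 99.4% on each array were whole multiples of 1 step within 0.02 steps, as 1 factor per array gives. The sources used here do not give the scanner, the software or the scaling target. A single gene symbol was paired with 20377 of 26423 probes, several with 0 and none with 6046. RefSeq's GRCm38.p6 tables served for names, gene order and promoter windows, and all 10 genes had a window.

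limma 3.58.1 in R 4.3.3 (lmFit, eBayes with a variance trend) was fitted to log2(intensity + 50) of all 26423 probes on 3 arrays, with 1 residual degree of freedom and a median prior of 13.1, and was tested on simulated data. This adds every probe to an earlier fit that used 1 probe per gene. The array number limits the precision. Tables and plots were made in Python 3.11.15 (numpy 2.4.6, pandas 2.3.3, matplotlib 3.10.9). Alternatives were other scalings, offsets, a floor, a filter on dim probes, 1 probe per gene, other variance models and leaving out each sensitive array.

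The members and lists were chosen with earlier results of these data known, and 1 list is not reported here. Named were every member probe, and from each list at most 3 genes called lower, 3 called higher and the brightest gene not called, plus the 3 genes nearest in pattern to Scin and to Evl among probes with a sensitive mean of at least 500 units. Motifs, neighbours and the comparison between probes of a gene were chosen after the data were seen.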

Additional observations from a re-analysis of the deposited data

How the results depend on the processing

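No paired analysis was possible because the resistant group has a single array. Under the scalings, offsets and floor tried, every probe of Scin, Evl, Capg, Flii and Coro1a stayed at least 1 log2 unit below each sensitive array. The brighter Enah probe stayed at least 1 above. The dim-probe filter, 1 probe per gene and left-out arrays could not change this. The filter and 1 probe per gene keep the values of the probes that remain, and the size rule already covers each sensitive array. The member probes that were higher came to 1 with an offset of 100, where the dimmer Enah probe differed by 0.92, and to 1 with 1 probe per gene. Counts over all probes moved more. Scaling on probes of at least 500 units on every array gave 2194 lower and 1832 higher calls over all probes, and 13 and 8 in the actin lists. Scaling on a mean of at least 500, chosen after seeing the data, gave 1818 and 2166, and 12 and 9 in the lists. Centring on medians gave 1514 and 2188, and 11 and 8. Quantile normalization gave 830 lower calls over all probes and 9 in the lists, and an offset of 16 gave 6523 lower over all probes. A floor of 50 gave 25 lower and 120 higher calls over all probes, and 0 and 1 in the lists by limma, although 26 list genes were lower by size, 23 of them at an unadjusted p under 0.05, and the lowest adjusted p among them was 0.069. The cause was not tested. Without either sensitive array no test remains, and 29 and 28 list genes were lower by size. Values near 0 limit how far the differences of Scin, Evl and Enah can be sized.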
